A study of Mus musculus with 9 samples.

Results

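Interferon response genes are the genes that cells switch on after an interferon signal, and 42 of them were followed here through prostate lesions of the mouse. The rule that lists them uses gene names and no measured value, though the list was drawn up with earlier results of these data known. A probe set assigned to exactly 1 gene symbol was found for 39 of the 42, out of 22180 symbols on the array, and 38 of these passed the filter on low signal that left 16635 genes for testing. Gbp2, Dtx3l and Ifi44 had no such probe set, and Trim30a lay below the filter.

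The series profiled 9 laser captures of formalin-fixed, paraffin-embedded prostate on a whole-transcript microarray, with 3 captures in each of 3 groups. The control group held HG-PIN (high-grade prostatic intraepithelial neoplasia, abnormal epithelium still confined to the gland) from 3 mice with PbCre and without the T-3Mb-Erg allele. The other groups held HG-PIN and solid, poorly differentiated adenocarcinoma from the same 3 mice with PbCre and a heterozygous T-3Mb-Erg allele (T-3Mb-Erg/+), so that each of these mice gave a pair of captures. All 6 mice were males of 12 months on a mixed strain background. PbCre is a Cre recombinase driven by a probasin promoter, which acts in prostate epithelium, and not in the stroma or immune cells that a capture may also hold. A further engineered locus, common to all 6 mice, is not described here. T-3Mb-Erg concerns the interval between Tmprss2 and Erg, and Mx1 and Mx2 of the interferon list lie between those genes. No tumour capture of the control genotype is analysed here, so the tumours differ from control HG-PIN in lesion and in allele together. With bulk captures, fewer cells of a type and less RNA per cell cannot be told apart.

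Interferons are secreted proteins that bind paired receptors on the cell surface. The receptors activate the kinases JAK1 and TYK2, which phosphorylate STAT proteins; STAT2 with IRF9 then joins a complex that binds short DNA elements in front of responsive genes. The products sense viral RNA, cut it, block its translation, tag proteins with ISG15 or amplify the signal, and epithelial and immune cells can both make them. Interferon genes themselves are induced upstream, by RNA and DNA sensors acting through IRF3 and IRF7.

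The DNA element was sought in the promoters as GAAA, any 2 bases and GAAA again, the core of the interferon-stimulated response element, on both strands of the RefSeq window from 250 bases before to 50 bases after each gene's start (300 bases, build GRCm38.p6). Windows were given for 29 of the 39 genes, and 14 of the 29 (48.3%) held a match, against 3.99% of all 27025 genes with a window. The other motif searched, TTCNNNGAA, the shape of a STAT dimer site, was present for 8 of the 29 (27.6%) and 9.55% of all genes. Matches of the 2 motifs overlapped in 2 member windows. A match is a description of the letters and does not show binding. The stretches below show the element in an upstream window of 4 genes whose values are given further on; capitals mark every base covered by a match, and TTTC, 2 bases and TTTC is the same motif read on the opposite strand. The first 2 stretches come from the minus strand of the genome and the others from the plus strand.

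Isg15, chr4:156200855-156200916: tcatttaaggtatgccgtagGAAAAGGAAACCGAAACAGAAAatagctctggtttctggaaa
Cxcl10, chr5:92349073-92349122: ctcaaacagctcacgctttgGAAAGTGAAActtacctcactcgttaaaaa
Ifit1, chr19:34640765-34640833: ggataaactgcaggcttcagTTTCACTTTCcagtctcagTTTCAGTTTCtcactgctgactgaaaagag
Stat2, chr10:128270256-128270305: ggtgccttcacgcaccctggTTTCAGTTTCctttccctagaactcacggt

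Isg15 held 3 overlapping matches between 57 and 78 bases before its start, and Ifit1 held 2 separate matches between 76 and 104 bases before its start. Cxcl10 and Stat2 each held 1 match, which ended 204 and 213 bases before the start. Of the genes tested, the 13 with a match had a median log2 change of -0.57 in tumour against T-3Mb-Erg HG-PIN, with 12 lower, and the 15 without a match had a median of -0.24, with 13 lower; the difference between these groups of genes was not tested. By unadjusted p under 0.05 the order was the other way, with 2 of the 13 and 5 of the 15 lower. For TTCNNNGAA, the 8 tested genes with a match had a median of -0.26 and the 20 without a match -0.62.

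Levels below are log2 of the deposited intensity, and the 3 values of a group are given in the order of mouse 1, 2 and 3; mouse 1 of the control group is another animal than mouse 1 of the T-3Mb-Erg groups. Signal was low for many of the genes. As a gauge of background, here called the receptor level, 95% of 1390 odorant and pheromone receptor genes (Olfr and Vmn symbols) lay under 4.81, and 27.9% of all tested genes had a mean above it. Of the 39 interferon response genes, 22 had a mean above this level over the 9 arrays. By group, 22 were above it in control HG-PIN, 26 in HG-PIN with T-3Mb-Erg and 12 in the tumours; 12 were above it in all 3 groups and 13 in no group. A gene near this level may have changed by more than its signal shows.

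In the tumours, the interferon response genes were lower than in HG-PIN of the same mice. The log2 change in tumour against T-3Mb-Erg HG-PIN was negative for 34 of the 38 tested genes, with a median of -0.58, beside -0.01 and 8496 negative changes for all 16635 genes. The changes beyond -1 were those of Oasl2 and Oas2 of the OAS family, the transcription factors Sp100 and Irf7, the sensors Zbp1 and Ifih1, and Lgals3bp, Isg15 and Parp14. Sp100 alone passed the test after adjustment over all genes (limma with Benjamini-Hochberg adjustment, p under 0.05), as 0.216% of all genes did in the lower direction. At an unadjusted p under 0.05, 15 of 38 were lower, against 3.98% of all genes, and 0 of 38 were higher, against 3.67%. Of the 15, 12 had a tumour mean at or below the receptor level, and for 3 both group means were there. The tumour values lay wholly below the HG-PIN values for 16 of 38, against 6.43% of all genes, and wholly above for 0 of 38, against 4.97%. No member was higher after adjustment, as 0.0661% of all genes were.

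Each of the 3 mice showed the direction. Tumour was below HG-PIN for 31 of 38 genes in mouse 1, 31 in mouse 2 and 31 in mouse 3, with medians of -0.56, -0.42 and -0.54; all tested genes had medians of 0.003, 0.02 and -0.08 in the same mice. Without HG-PIN of T-3Mb-Erg mouse 3 the members' median change was -0.38. All 3 mice agreed on a lower tumour value for 23 of 38 genes, against 13.1% of all genes. Another 10 genes were lower in 2 mice, 4 in 1 mouse and 1, Isg20, in 0 mice. The tumours had the lowest of the 3 group means for 30 of the 39 measured genes and the highest for 0, and T-3Mb-Erg HG-PIN had the highest mean for 30.

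**Figure D1:**
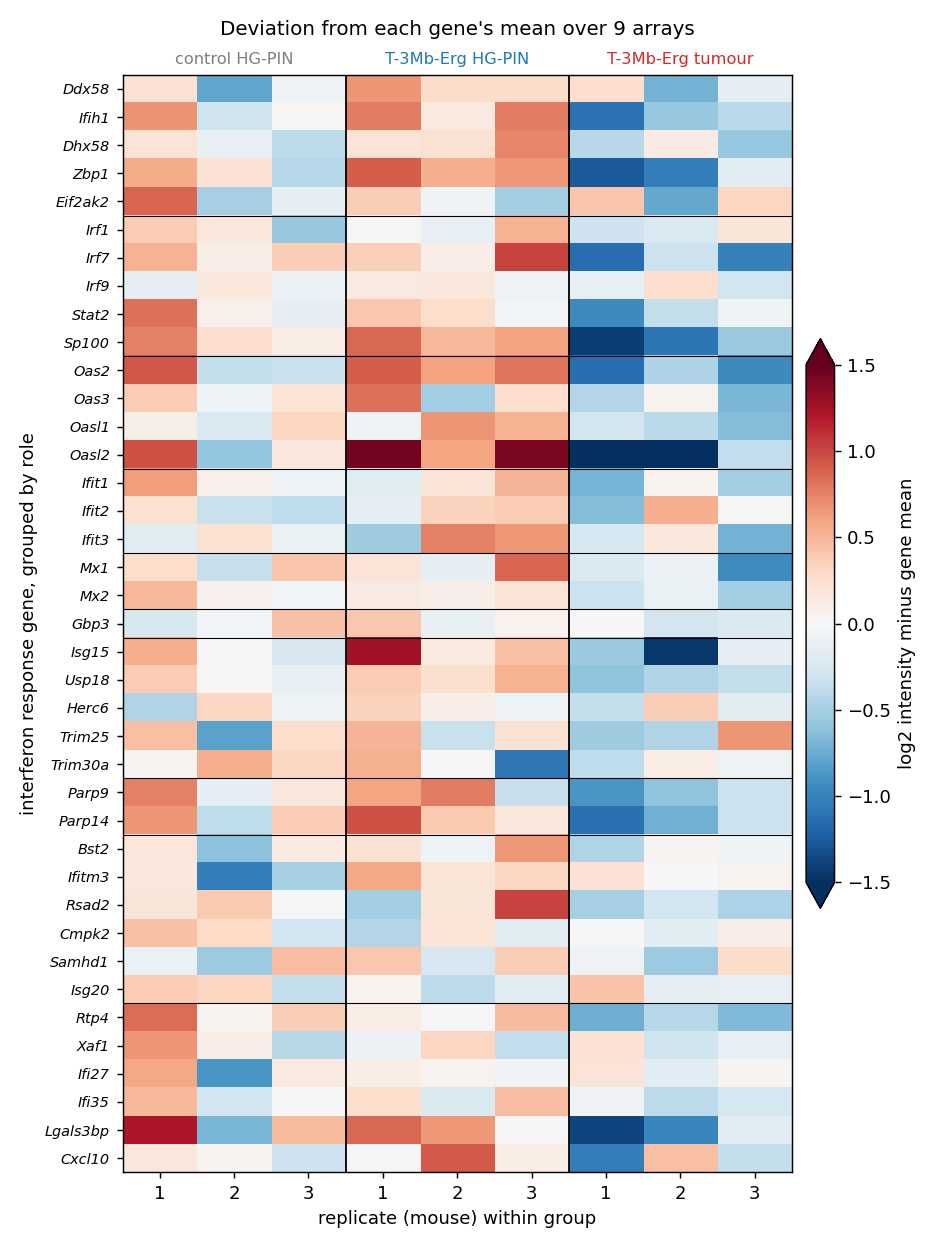
Log2 intensity of each of the 39 measured interferon response genes (rows, grouped by role) on each of the 9 arrays (columns, by group and mouse), as the deviation from that gene's mean; red is above and blue below, and deviations beyond 1.5 take the end colours. The tumour columns are mostly blue, with Oasl2, Sp100, Oas2, Zbp1 and Irf7 among the deepest, while Isg20, Ifi27 and Cmpk2 are pale there.

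Among the RNA and nucleic acid sensors, Zbp1, which binds Z-form nucleic acids and can start necroptosis, showed the largest difference. Its level was 6.40, 6.06 and 5.42 in control HG-PIN, 6.75, 6.39 and 6.50 in HG-PIN with T-3Mb-Erg and 4.59, 4.81 and 5.69 in the tumours. Every tumour value was below every T-3Mb-Erg HG-PIN value, while the tumour of mouse 3 overlapped the control range. The log2 change from T-3Mb-Erg HG-PIN was -1.52 (SE 0.37, adjusted p = 0.169).

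Ifih1 encodes MDA5, a sensor of long double-stranded RNA. It read 5.54, 4.57 and 4.88 in control HG-PIN, 5.63, 5.01 and 5.63 in HG-PIN with T-3Mb-Erg and 3.75, 4.29 and 4.46 in the tumours. The tumours were below both HG-PIN groups without overlap; the change from T-3Mb-Erg HG-PIN was -1.26 (SE 0.32, adjusted p = 0.191). The other sensors were less uniform. Ddx58, which encodes RIG-I, was at 5.09, 4.10 and 4.80 in control HG-PIN, 5.53, 5.15 and 5.15 in HG-PIN with T-3Mb-Erg and 5.12, 4.16 and 4.74 in the tumours, so that T-3Mb-Erg HG-PIN lay above both other groups without overlap. Dhx58, which encodes the related regulator LGP2, read 4.29, 3.97 and 3.70 in control HG-PIN, 4.28, 4.32 and 4.82 in HG-PIN with T-3Mb-Erg and 3.67, 4.21 and 3.51 in the tumours. It was below the receptor level in 8 of 9 captures, and its change of -0.67 in tumour against T-3Mb-Erg HG-PIN had an adjusted p of 0.506. Eif2ak2, which encodes the kinase PKR, was below the receptor level in all 9 captures, with a change of 0.06 (95% interval -0.83 to 0.95).

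Of the transcription factors, Sp100 is a component of PML nuclear bodies that interferon induces. Sp100 read 5.94, 5.44 and 5.31 in control HG-PIN, 6.05, 5.69 and 5.79 in HG-PIN with T-3Mb-Erg and 3.78, 4.09 and 4.63 in the tumours. All 3 tumour values were below all 6 HG-PIN values and below the receptor level. Against T-3Mb-Erg HG-PIN, Sp100 fell by 1.68 on the log2 scale (SE 0.30, 95% interval -2.33 to -1.03), a fold of 3.20, with an adjusted p of 0.0444. With each mouse as a fixed replicate block in this paired comparison, the adjusted p was 0.0809, so the call was lost. The adjusted p was also above 0.05 without control mouse 1 (0.0503), control mouse 3 (0.0756), HG-PIN of T-3Mb-Erg mouse 1 (0.285) or mouse 2 (0.243), or the tumour of mouse 1 (0.328) or mouse 2 (0.08). Over 22 alternatives it ran from 0.00542 to 0.328 and the log2 change from -1.92 to -1.10; the call held in 10 of the 22. Sp100 had 3 further probe sets of its own: the brighter ones were lower in the tumour of all 3 mice, by 2.15 to 3.36 for the first and 0.91 to 2.21 for the next, and the dimmest, with a mean of 1.75, differed by 0.02, 0.00 and 0.64. A separate probe set, shared by Sp100 and Gm7609, had means of 5.36 ± 0.30 in control HG-PIN, 5.66 ± 0.06 in HG-PIN with T-3Mb-Erg and 4.32 ± 0.21 in the tumours (SD, n = 3).

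Irf7 is the factor that amplifies interferon production after a first signal. It read 6.04, 5.61 and 5.88 in control HG-PIN, 5.87, 5.61 and 6.52 in HG-PIN with T-3Mb-Erg and 4.37, 5.19 and 4.50 in the tumours. The 3 tumours lay below all 6 HG-PIN captures, with a change of -1.31 from T-3Mb-Erg HG-PIN (SE 0.33, adjusted p = 0.194). Stat2 and Irf9, partners in the complex that binds the response element, differed in their values. Stat2 was at 5.57, 4.82 and 4.60 in control HG-PIN, 5.15, 5.002 and 4.70 in HG-PIN with T-3Mb-Erg and 3.79, 4.38 and 4.68 in the tumours, a change of -0.67 (95% interval -1.35 to 0.02, adjusted p = 0.679). In mouse 3 its HG-PIN and tumour values differed by only 0.02. Irf9 read 4.43, 4.72 and 4.47, then 4.70, 4.72 and 4.49, then 4.44, 4.81 and 4.28 in the same order of groups, with full overlap and a change of -0.12 (95% interval -0.61 to 0.36). Irf1, induced by both interferon types, was at 4.55, 4.34 and 3.60 in control HG-PIN, 4.14, 4.04 and 4.69 in HG-PIN with T-3Mb-Erg and 3.86, 3.94 and 4.35 in the tumours, all below the receptor level, with a change of -0.24 (95% interval -0.86 to 0.38).

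The OAS family makes or resembles the enzymes that produce 2-5A, the messenger that activates RNase L. All 4 tested members were lower in the tumours than in T-3Mb-Erg HG-PIN, with a median change of -1.22. Oasl2 had the largest change of any interferon response gene on the list. Its level was 5.39, 3.87 and 4.61 in control HG-PIN, 5.88, 5.03 and 5.86 in HG-PIN with T-3Mb-Erg and 2.38, 2.90 and 4.08 in the tumours. The tumours were below T-3Mb-Erg HG-PIN in every mouse but overlapped control HG-PIN, where mouse 2 was at 3.87. The change of -2.47 from T-3Mb-Erg HG-PIN (SE 0.47, 95% interval -3.49 to -1.45) had an adjusted p of 0.0549. All 3 tumour values of Oasl2 were below the receptor level, and over 22 alternatives its change ran from -2.91 to -1.35.

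Oas2 read 5.93, 4.65 and 4.66 in control HG-PIN, 5.91, 5.61 and 5.81 in HG-PIN with T-3Mb-Erg and 3.87, 4.54 and 4.05 in the tumours, below both HG-PIN groups without overlap. Its change from T-3Mb-Erg HG-PIN was -1.62 (SE 0.35, adjusted p = 0.1). Oasl1, which in mice limits translation of Irf7, was at 4.68, 4.37 and 4.92 in control HG-PIN, 4.55, 5.27 and 5.12 in HG-PIN with T-3Mb-Erg and 4.33, 4.19 and 3.95 in the tumours, again with all tumours lowest; the change was -0.82 (adjusted p = 0.339). Oas3 overlapped between the groups, with a change of -0.54 (95% interval -1.24 to 0.17).

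**Figure D2:**
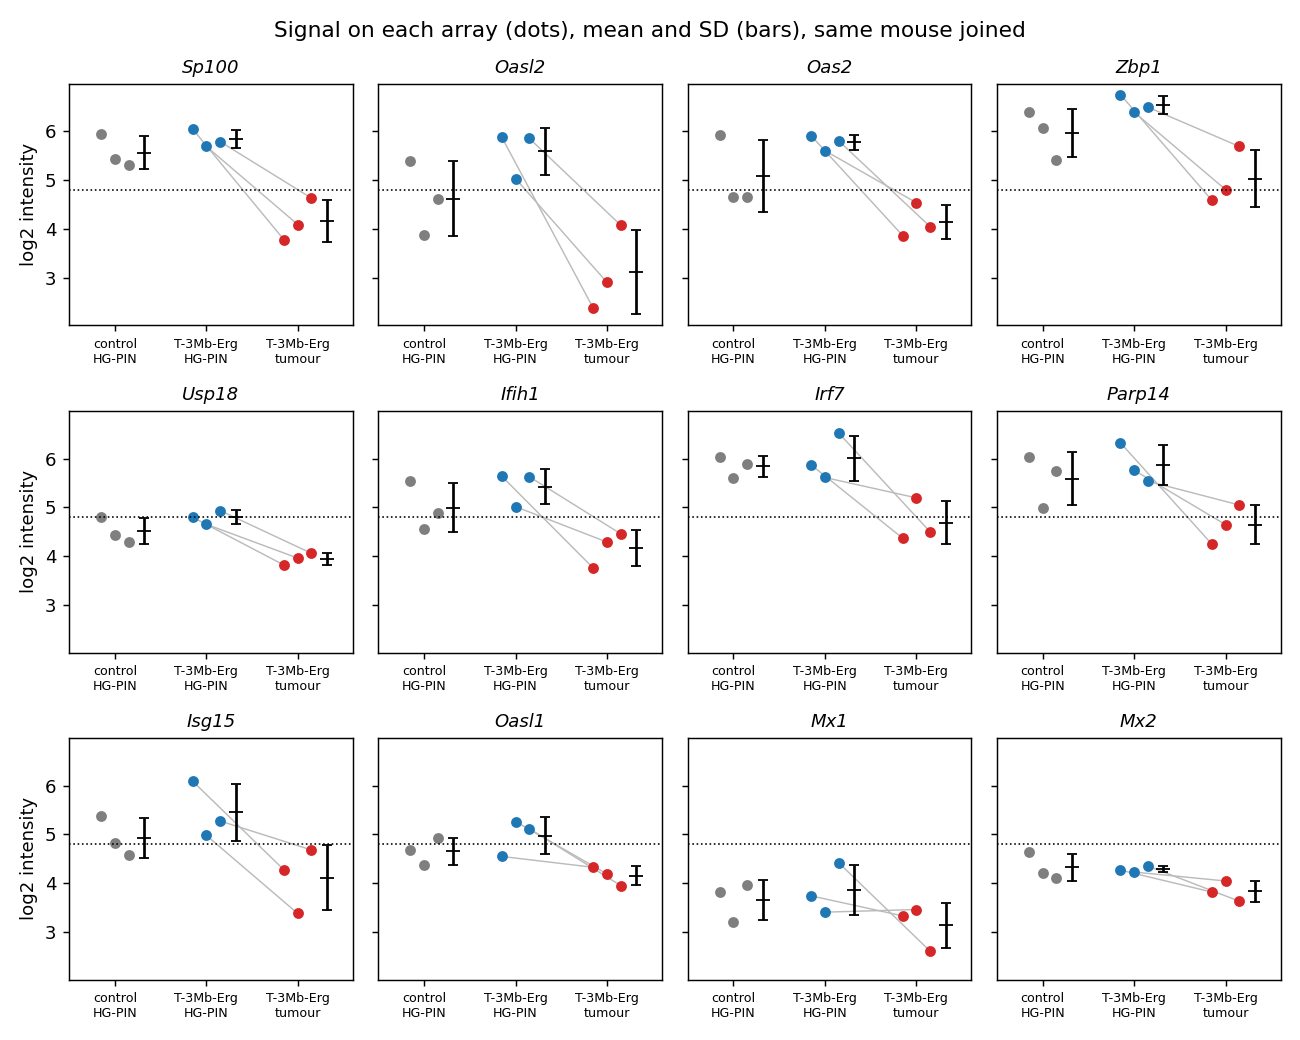
Log2 intensity of 12 interferon response genes on each array (dots), with group mean and SD (bars, n = 3); grey lines join HG-PIN and tumour of the same mouse, and the dotted line is the receptor level of 4.81. Sp100, Oas2, Ifih1, Irf7, Usp18, Oasl1 and Mx2 have all tumours below all HG-PIN captures, while Mx1 overlaps. Mx1 and Mx2 lie below the dotted line throughout.

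The IFIT proteins bind viral RNA and block its translation. Their 3 members had changes of -0.57 (Ifit1), -0.22 (Ifit2) and -0.56 (Ifit3) in tumour against T-3Mb-Erg HG-PIN, and none of the 3 had an unadjusted p under 0.05. Ifit1 had means of 5.58 ± 0.37, 5.55 ± 0.35 and 4.98 ± 0.39 and Ifit2 of 3.33 ± 0.34, 3.69 ± 0.28 and 3.47 ± 0.60 in control HG-PIN, T-3Mb-Erg HG-PIN and tumours (SD, n = 3). Ifit3 ran from 6.57 to 8.04 over the 9 captures. The Mx GTPases trap viral nucleoproteins in many mammals, and RefSeq types both mouse genes as transcribed pseudogenes in the reference strain. Mx1 read 3.81, 3.20 and 3.96 in control HG-PIN, 3.74, 3.41 and 4.42 in HG-PIN with T-3Mb-Erg and 3.33, 3.46 and 2.61 in the tumours. Mx2 read 4.64, 4.21 and 4.11, then 4.27, 4.23 and 4.35, then 3.82, 4.05 and 3.63. Both were below the receptor level in all 9 captures, and the Mx2 tumour values lay below both HG-PIN groups without overlap. Against control HG-PIN, the T-3Mb-Erg HG-PIN values of these 2 genes of the Tmprss2-Erg interval differed by 0.20 for Mx1 (95% interval -0.50 to 0.90) and -0.04 for Mx2 (95% interval -0.49 to 0.42). Neither interval reached a log2 change of -1, but at signals below the receptor level a change may be understated, so a change of that size cannot be judged from these values. In tumour against T-3Mb-Erg HG-PIN the changes were -0.72 (adjusted p = 0.634) and -0.45 (adjusted p = 0.666). Of the guanylate-binding GTPases, which attack the membranes around intracellular pathogens, Gbp3 changed by -0.28 (95% interval -0.86 to 0.29), and a probe set shared by Gbp2 and Gbp2b had means of 5.66 ± 0.32, 5.46 ± 0.23 and 4.98 ± 0.35 (SD, n = 3) in control HG-PIN, T-3Mb-Erg HG-PIN and tumours.

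ISG15 is a ubiquitin-like protein that interferon induces and that is attached to other proteins. Isg15 was at 5.38, 4.83 and 4.59 in control HG-PIN, 6.09, 4.98 and 5.28 in HG-PIN with T-3Mb-Erg and 4.28, 3.38 and 4.68 in the tumours. The tumours were below T-3Mb-Erg HG-PIN without overlap, and the tumour of mouse 3 lay within the control range; the change was -1.34 (SE 0.39, adjusted p = 0.291). Usp18 encodes the protease that removes ISG15 and damps the receptor. It read 4.80, 4.43 and 4.29 in control HG-PIN, 4.80, 4.65 and 4.93 in HG-PIN with T-3Mb-Erg and 3.82, 3.96 and 4.06 in the tumours, below both HG-PIN groups, with a change of -0.85 (SE 0.21, adjusted p = 0.182). The ligases Herc6 and Trim25 overlapped between the groups, at -0.18 and -0.24. Trim30a, which was not tested, read 3.25, 3.75 and 3.52, then 3.75, 3.20 and 2.14, then 2.83, 3.32 and 3.13.

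Parp9 and Parp14 belong to the ADP-ribosyltransferase family. Parp14 read 6.03, 4.99 and 5.75 in control HG-PIN, 6.32, 5.76 and 5.54 in HG-PIN with T-3Mb-Erg and 4.25, 4.64 and 5.05 in the tumours. It was lower in the tumour of every mouse, by 2.08 in mouse 1, 1.11 in mouse 2 and 0.49 in mouse 3, and its change was -1.23 (SE 0.35, adjusted p = 0.291). Parp9 changed by -0.94 (adjusted p = 0.482), and its HG-PIN and tumour values in mouse 3 differed by 0.02. A probe set shared by Parp9 and its partner Dtx3l had means of 4.26 ± 0.41 in control HG-PIN, 4.83 ± 0.33 in HG-PIN with T-3Mb-Erg and 3.74 ± 0.23 in the tumours (SD, n = 3).

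The membrane and nucleotide effectors had a median change of -0.28 with 4 of 6 negative, and 0 of 6 had an unadjusted p under 0.05. Rsad2, which encodes the antiviral enzyme viperin, had the largest change among them, -0.64 (95% interval -1.35 to 0.06), with means of 3.82 ± 0.20 in control HG-PIN, 3.85 ± 0.77 in HG-PIN with T-3Mb-Erg and 3.21 ± 0.12 in the tumours, all under the receptor level. Ifitm3, which blocks the entry of viruses through endosomes, was among the brightest signals, at 9.79, 8.60 and 9.12 in control HG-PIN, 10.2, 9.82 and 9.94 in HG-PIN with T-3Mb-Erg and 9.84, 9.61 and 9.68 in the tumours. T-3Mb-Erg HG-PIN lay just above the control range, and the tumour change was -0.27 (95% interval -1.27 to 0.73). Samhd1, which destroys deoxynucleotides, and Bst2, which tethers budding virus, had changes of -0.29 and -0.42 with overlapping groups. Cmpk2, a mitochondrial nucleotide kinase, had means of 4.51 ± 0.39, 4.23 ± 0.33 and 4.34 ± 0.13, a change of 0.11 (95% interval -0.44 to 0.66). Isg20, an RNA exonuclease, was higher in the tumour of all 3 mice, by 0.38, 0.26 and 0.05, within the spread between captures (change 0.23, 95% interval -0.43 to 0.89).

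Of the remaining induced genes, Rtp4, a chaperone of membrane receptors, read 6.27, 5.46 and 5.80 in control HG-PIN, 5.54, 5.41 and 5.90 in HG-PIN with T-3Mb-Erg and 4.70, 4.99 and 4.77 in the tumours. The tumours were below both HG-PIN groups without overlap, with changes of -0.80 from T-3Mb-Erg HG-PIN (adjusted p = 0.473) and -1.02 from control HG-PIN (adjusted p = 0.209). Lgals3bp, a secreted glycoprotein, changed by -1.35 from T-3Mb-Erg HG-PIN (adjusted p = 0.543). It was lower in the tumour by 2.23 in mouse 1, 1.62 in mouse 2 and only 0.18 in mouse 3. A dimmer probe set of Lgals3bp was lower by 1.42, 1.29 and 0.98 in the same mice. The chemokine gene Cxcl10, which draws T cells, was at 4.92, 4.79 and 4.43 in control HG-PIN, 4.77, 5.66 and 4.86 in HG-PIN with T-3Mb-Erg and 3.71, 5.20 and 4.39 in the tumours. Each tumour was below its own HG-PIN, by 1.06, 0.46 and 0.47, while the groups overlapped (change -0.66, 95% interval -1.48 to 0.16). Ifi35 had means of 5.11 ± 0.39, 5.21 ± 0.35 and 4.80 ± 0.17 (SD, n = 3), a change of -0.41 (95% interval -1.03 to 0.21). Ifi27 and Xaf1 differed by 0.00 and -0.02, with Ifi27 between 4.48 and 5.93 and Xaf1 between 4.75 and 5.83 over the 9 captures.

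The comparison of T-3Mb-Erg HG-PIN with control HG-PIN holds the labelled lesion constant, and it gave no call for any interferon response gene. It sets 3 mice with the allele against 3 other mice on a mixed strain background, so allele and animal differ together. Changes were positive for 30 of 38, with a median of 0.19 beside -0.004 for all genes, and ran from -0.29 (Isg20) to 0.97 (Oasl2). After adjustment, 0 of 38 were lower and 0 higher in this limma fit, as 0% of all genes were in either direction. At an unadjusted p under 0.05, 0 of 38 were lower, against 2.27% of all genes, and 0 higher, against 1.83%. The groups did not overlap for 2 of 38 in the higher direction (Ddx58 and Ifitm3), against 4.86% of all genes, and for 0 of 38 in the lower direction, against 5.25%. The 4 smallest p-values were those of Oasl2 (0.97, SE 0.46), Oas2 (0.69, SE 0.35), Dhx58 (0.48, SE 0.25) and Ddx58 (0.61, SE 0.32), each with an adjusted p of 0.998. For 21 of the 38 genes the 95% interval lay within a log2 change of -1 to 1, and for 16 it reached 1 or more, so an increase of that size lay within the error of 3 mice a group. Control mouse 1 stood above the other control mice, with the members' median at 0.44 above their means, against -0.05 and -0.05; without that capture the median change was 0.32, and without control mouse 2 it was 0.08, with 17 of 38 negative in place of 8. Several marker lists were also mostly positive in this comparison. Positive were 13 of 14 luminal epithelial, 12 of 14 macrophage and myeloid, 10 of 10 fibroblast and 8 of 8 smooth muscle markers. Their medians were 0.46, 0.27, 0.82 and 1.05. Basal epithelial (6 of 7), endothelial (6 of 9) and plasmacytoid dendritic cell markers (3 of 5) were also positive in the majority. Prostate epithelial markers went the other way, with 6 of 7 negative and a median of -1.14. Lymphocyte markers were negative for 6 of 9, with a median of -0.125. No list had a call, and the part of these markers in the interferon response values was not tested.

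Tumours were also set against control HG-PIN, a comparison that shares the tumour captures with the paired one. Changes were negative for 33 of 38, with a median of -0.40 beside -0.03 for all genes. After adjustment 0 of 38 were lower, against 0.0721% of all genes, and 0 higher, against 0.108%. At an unadjusted p under 0.05, 12 of 38 were lower, against 4.59% of all genes, and 0 higher, against 4.74%. Without tumour mouse 1, 4 were lower, against 3.02% of all genes, and without control mouse 1 also 4, against 3.51%. Of the 12, 10 had a tumour mean at or below the receptor level. The groups did not overlap for 10 of 38 in the lower direction, against 7.51% of all genes, and for 0 in the higher direction, against 6.2%. The smallest p-values belonged to Sp100 (-1.40, SE 0.29, adjusted p = 0.0879), Rtp4 (-1.02, SE 0.29), Irf7 (-1.16, SE 0.33, adjusted p = 0.218) and Oasl2 (-1.503, SE 0.46, adjusted p = 0.261). In this comparison luminal (14 of 14, median -1.67), prostate (7 of 7, -3.17) and basal epithelial markers (6 of 7, -0.56) were mostly negative. Lymphocyte markers were negative for 9 of 9 (-0.20). Fibroblast (10 of 10, 2.375), endothelial (8 of 9, 0.61) and smooth muscle markers (5 of 8, 0.20) were mostly positive. So were macrophage and myeloid (9 of 14, 0.12) and plasmacytoid dendritic cell markers (3 of 5, 0.24). The part of these markers was not tested.

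**Figure D3:**
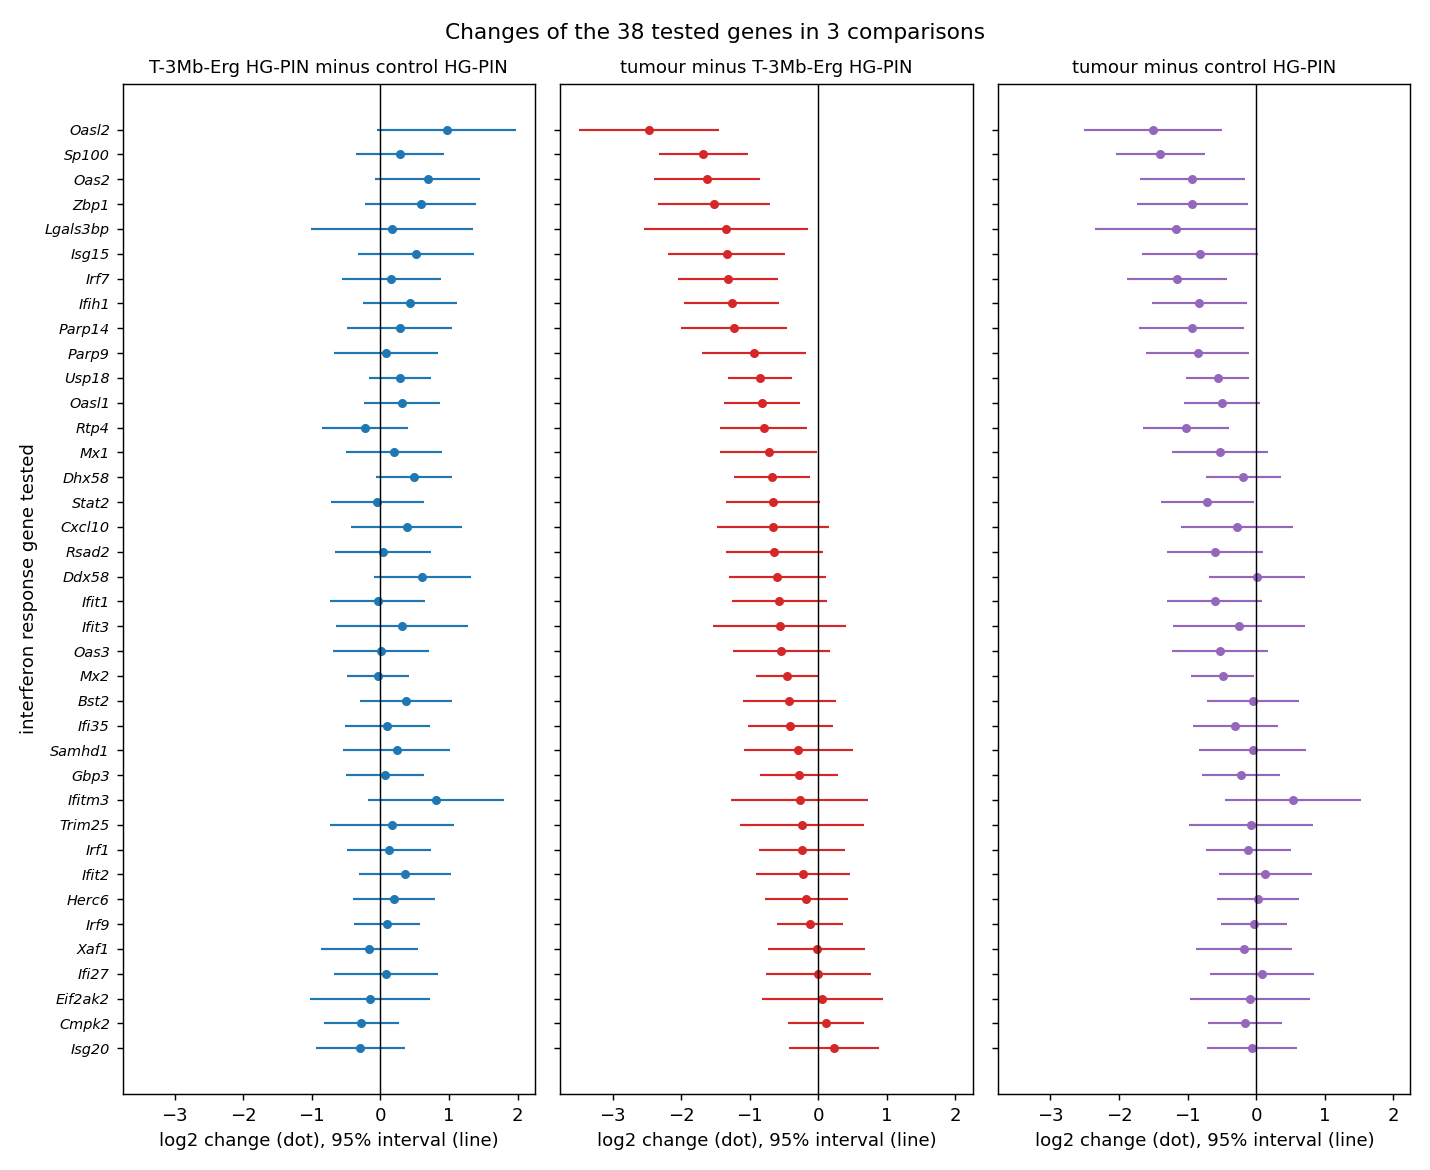
Log2 change (dots) with 95% interval (lines) of the 38 tested interferon response genes, ordered by their change in tumour against T-3Mb-Erg HG-PIN, in the 3 comparisons, which share captures. In the middle panel 34 of 38 dots lie left of 0 and 15 intervals lie wholly below it, while in the left panel every interval includes 0.

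The steps around the response were read from lists of the pathway's other genes. Of the receptors, kinases and STATs, 9 of the 10 tested had a positive change in tumour against T-3Mb-Erg HG-PIN, with a median of 0.32, but the mice were split: 3 of 10 were lower in the tumour of mouse 1, 8 of 10 in mouse 2 (median -0.27) and 0 of 10 in mouse 3. Of these genes 0 of 10 passed the test in either direction in any of the 3 comparisons. Ifnar1, a chain of the receptor for type I interferon, read 5.14, 4.95 and 5.20 in control HG-PIN, 5.19, 5.42 and 4.94 in HG-PIN with T-3Mb-Erg and 5.71, 5.12 and 6.23 in the tumours, with a change of 0.51 (95% interval -0.18 to 1.19). Its partner Ifnar2 spread widely among the tumours, at 5.98, 4.31 and 6.73 (change 0.53, 95% interval -0.59 to 1.64). The kinase Jak1 changed by 0.65 (95% interval -0.29 to 1.60) and Tyk2 by 0.07 (95% interval -0.31 to 0.45). Ifngr1, the receptor chain that binds interferon gamma, changed by 0.01, its partner Ifngr2, the 1 gene with a negative change, by -0.18 (95% interval -0.90 to 0.53), and Il10rb, a chain of the interferon lambda receptor, by 0.35. Against control HG-PIN, T-3Mb-Erg HG-PIN was lower by -0.80 on the log2 scale for Ifnlr1, the other lambda chain (adjusted p = 0.998), and Stat3 differed by 0.75.

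Of the 21 interferon ligand genes, 13 were tested, 5 had a negative and 8 a positive change in tumour against T-3Mb-Erg HG-PIN, the median was 0.03, and 0 passed in any comparison. Ifna15 (0.78), Ifna2 (0.80) and Ifnl2 (-0.52) had the smallest p-values of these, with adjusted p-values of 0.587, 0.781 and 0.904. The mice were split, with 3 of the 13 ligand genes lower in the tumour of mouse 1, 7 in mouse 2 and 11 in mouse 3. Ifna2, with a mean below the receptor level, differed by 2.365, 1.082 and -1.039 in mice 1, 2 and 3. In T-3Mb-Erg HG-PIN against control HG-PIN, 10 of the 13 were negative, with a median of -0.29. There, 2 of the 13 were lower at an unadjusted p under 0.05, against 2.27% of all genes, and 0 higher, against 1.83%. In tumour against control HG-PIN 8 of the 13 were negative, with a median of -0.28. Alpha interferon genes are near-identical copies whose probe sets may share signal. The upstream induction genes gave 7 negative of 10 with a median of -0.13 and 0 calls, but the mice were split. Lower in the tumour were 7 of 10 in mouse 1, 9 in mouse 2 and 2 in mouse 3, where the median was 0.40. Negative changes included the nucleic acid receptors Tlr9 (-0.53) and Tlr3 (-0.46). The DNA pathway adaptor Sting1 changed by -0.55 and Irf3 by -0.19 (95% interval -0.78 to 0.41). In mouse 3, Tlr3 and Sting1 were higher in the tumour, by 0.24 and 0.55. The 3 genes with a positive change, of at most 0.17, were Irf8, Tbk1 and Ikbke. Negative regulators gave 5 negative of 10 and 0 calls, with Irf2bp1 at -0.60, Pias1, an inhibitor of STAT proteins, at 0.86 and Nlrx1 at -0.44.

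Other interferon-induced genes, outside the 42, followed the same pattern by count: 40 of 48 tested had a negative change in tumour against T-3Mb-Erg HG-PIN, against 51.1% of all genes, with a median of -0.41. At an unadjusted p under 0.05, 11 of 48 were lower, against 3.98% of all genes, and 0 higher, against 3.67%; 0 passed after adjustment, against 0.216% of all genes lower and 0.0661% higher. Oas1g was the first by p (-2.27, SE 0.44, adjusted p = 0.059), followed by Ddx60 (-1.09, adjusted p = 0.325) and Slfn2 (-1.44, adjusted p = 0.362). In T-3Mb-Erg HG-PIN against control HG-PIN 38 of 48 were positive, with a median of 0.22, and in tumour against control HG-PIN 39 of 48 were negative, with a median of -0.22; 0 passed in either.

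The captures also differed in their cell type markers. Luminal epithelial markers were negative in tumour against T-3Mb-Erg HG-PIN for 14 of 14 genes, with a median of -2.22 and 9 calls. Their summed intensity ran from 413.71 to 503.37 in the tumours, from 1643.65 to 2113.82 in HG-PIN with T-3Mb-Erg and from 750.45 to 1736.24 in control HG-PIN. The log2 change was -2.88 for the keratin gene Krt8 (adjusted p = 0.0154) and -2.55 for the adhesion gene Epcam (adjusted p = 0.043). Of the 14 markers, 3, 7 and 7 were above the receptor level in the 3 tumours, against 14 in each T-3Mb-Erg HG-PIN capture, so the tumour captures were weak in the markers of their labelled lineage. Prostate epithelial markers were negative for 7 of 7 (median -1.77, 0 calls) and basal epithelial markers for 6 of 7 (median -0.40), with 1 call, the keratin gene Krt15, at -2.998 (adjusted p = 0.0158). The interferon response genes thus had the same sign of change as the epithelial markers, as did the smooth muscle markers given below. In T-3Mb-Erg HG-PIN against control HG-PIN, the median of the interferon response genes was 0.19. The epithelial lists differed there, with medians of 0.46 for luminal, 0.19 for basal and -1.14 for prostate epithelial markers. The part of epithelial content in these changes was not tested. Summed intensity of the 38 interferon response genes ran from 1896.96 to 2010.76 in the tumours, from 2727.52 to 3129.73 in HG-PIN with T-3Mb-Erg and from 1679.70 to 3004.45 in control HG-PIN.

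Immune markers had no common direction. Of 14 tested macrophage and myeloid markers 8 were negative and 6 positive in tumour against T-3Mb-Erg HG-PIN, with a median of -0.04 and 1 call, Cd14, which fell by 1.73 on the log2 scale (adjusted p = 0.0409). Their summed intensity ran from 350.69 to 405.83 in control HG-PIN, from 385.72 to 591.46 in HG-PIN with T-3Mb-Erg and from 367.47 to 768.80 in the tumours. Ptprc, the marker of all leukocytes, was below the filter at 2.23 to 3.98 over the 9 captures, and Adgre1 lay between 4.08 and 4.85. Of 9 lymphocyte markers 6 were negative, with a median of -0.10, and the T cell gene Cd3e was below the receptor level in all 9 captures. Of 5 markers of plasmacytoid dendritic cells, a strong source of interferon, 3 were negative, with a median of -0.01; Siglech ran from 4.40 to 5.32. Fibroblast markers had a positive change for 10 of 10, with a median of 1.49 and 0 calls, and their summed intensity was 1625.57, 611.40 and 4119.63 in the tumours, highest in mouse 3, against 282.22 to 770.93 in HG-PIN with T-3Mb-Erg and 211.58 to 254.14 in control HG-PIN. Smooth muscle markers were negative for 7 of 8, with a median of -0.90, 3 lower at an unadjusted p under 0.05 and 0 calls; their summed intensity was 1394.92 in HG-PIN of T-3Mb-Erg mouse 1 and ran from 190.92 to 643.76 over the other captures. Endothelial markers were positive for 8 of 9, with a median of 0.27 and 0 calls. The part of these markers in the interferon response values was not tested.

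**Figure D4:**
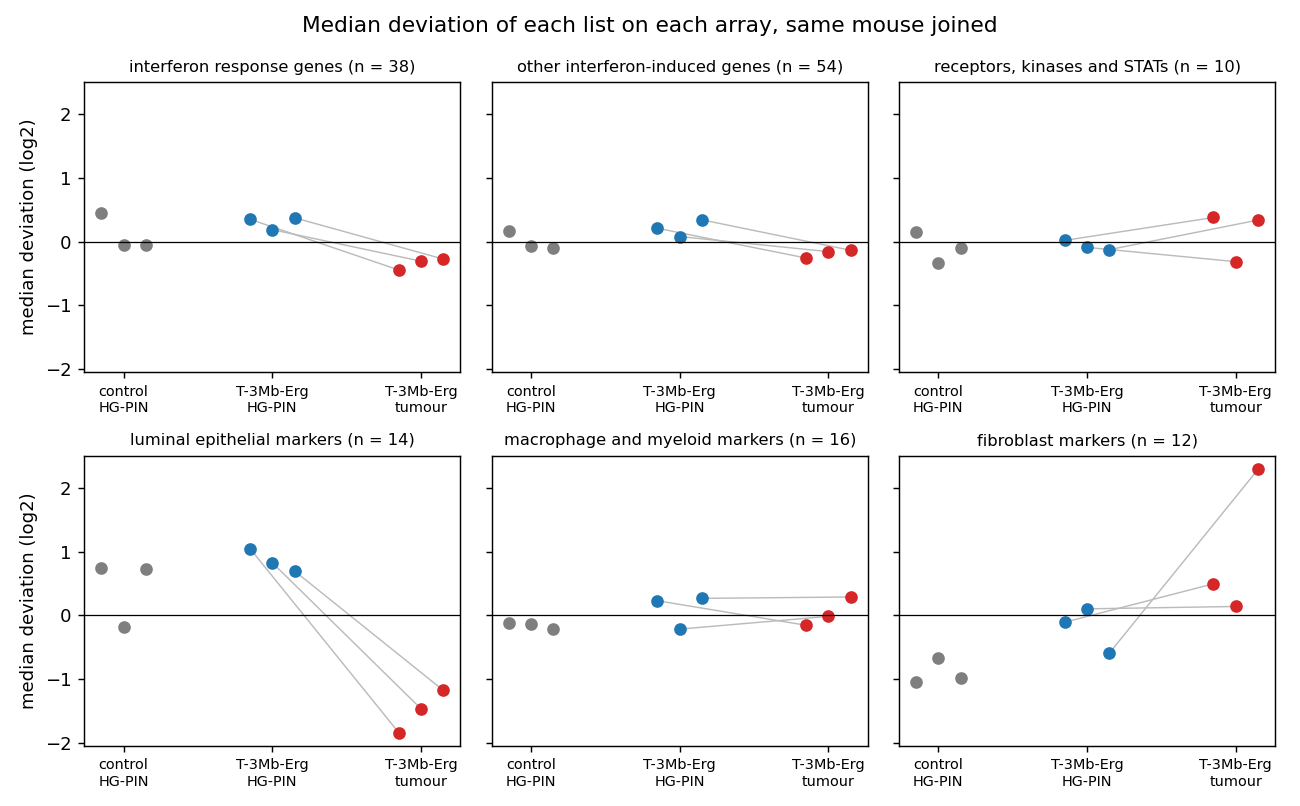
Median deviation (log2) of the 38 tested interferon response genes, and of each other list's measured genes, from their own means, on each array (dots), with HG-PIN and tumour of the same mouse joined by grey lines. The interferon response genes lie at -0.45, -0.31 and -0.28 in the tumours and at 0.35, 0.19 and 0.37 in T-3Mb-Erg HG-PIN; luminal markers separate the same groups more widely, receptors, kinases and STATs are split between the mice, and fibroblast markers are highest in the tumour of mouse 3.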

How the data were processed

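RNA from laser-captured, formalin-fixed prostate was amplified and hybridised to a 1-colour whole-transcript array, per the labels' protocols. The deposited values are linear intensity values for 41345 probe sets; how the authors corrected background and summarised probes is not given in the sources used here. They were taken to log2 with no pseudocount. Platform annotation gave 1 gene symbol for 23521 probe sets, several for 1814 and none for 16010; the brightest probe set per symbol was kept, and the 25% of genes with the lowest mean (under 3.25) were removed. The fit (R 4.3.3, limma 3.58.1: group means over all 9 arrays, mouse as a random block with a consensus correlation of -0.01, eBayes with trend, Benjamini-Hochberg over 16635 genes) was tested on simulated data.

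Number 1, 2 and 3 in the T-3Mb-Erg groups are the same mouse, so HG-PIN and tumour are paired; deviations of the pairs correlated at 0.17, 0.10 and -0.30. The number of arrays limits the precision. By rule, values on every array are given for the 10 members with the smallest p-values in tumour against T-3Mb-Erg HG-PIN, the 4 smallest in each other comparison, and Mx1, Mx2, Irf7, Irf9, Stat2, Irf1, Isg15 and Cxcl10; those of Ifitm3 and Trim30a were added after their values were seen. Other members are given by their change, most with their levels. Of the pathway lists, receptor chains, kinases, Irf3 and genes with the smallest p-values in tumour against T-3Mb-Erg HG-PIN are named with their change, and a few others after their values were seen. Some genes of the pathway are not analysed here. The members and lists were chosen with earlier results of these data known. Alternatives were another block, filter, scaling, probe set rule and array weighting, and leaving out captures. The promoter stretches are RefSeq sequence.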

Additional observations from a re-analysis of the deposited data

How the results depend on the processing

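Over 22 alternatives, the members' median change in tumour against T-3Mb-Erg HG-PIN stayed negative, from -0.73 to -0.33. Of the members tested, 31 to 37 were lower, beside 48.1% to 53.8% of all genes. The 31 were of 34 tested and the 37 of 39. The lowest share, 33 of 39, came without each group's array of narrowest signal range. In these limma fits, 11 to 21 were lower at an unadjusted p under 0.05. The share of all genes lower at that p ran from 2.51% (without tumour mouse 1) to 8.81% (array weights), the settings with 11 and 21. A pseudocount of 16 gave medians of -0.33 and, against control HG-PIN, -0.22. Leaving out 1 capture gave -0.71 to -0.38, with -0.38 without T-3Mb-Erg HG-PIN mouse 3. The count of members called lower, 1 in the fit reported, was 0 with a fixed replicate block for the paired mice, with no filter, with the pseudocount, with array medians, with only the 6 paired arrays and when each group's array of narrowest signal range was left out; it was 2 with the lowest 50% removed and with quantile scaling, 4 with a term for signal range and 8 with array weights, and 0 to 3 when 1 capture was left out. Against control HG-PIN, where 0 were called, 1 was called with quantile scaling, with the mean of all probe sets, with the range term and without the narrowest-range arrays, and 9 with array weights; 0 were called when 1 capture was left out. For the counts called after adjustment, the matching share of all genes is not given here. The 12 lower at an unadjusted p became 20 with array weights, where 10.7% of all genes were lower, in place of 4.59%. The count was 4 to 14 when 1 capture was left out, with 3.02% to 6.65% of all genes lower. In T-3Mb-Erg HG-PIN against control HG-PIN no member was called under any of the 22, and the median ran from 0.05 to 0.32. The cause of these changes was not tested. Without the narrowest-range arrays the mouse block could not be estimated and was left out.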
